A study of Mus musculus with 6 samples.

Results

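The STAT factors and JAK kinases described here are 9 genes, taken by symbol from the 24493 rows of the expression table. They comprise 6 STAT genes (Stat2, Stat3, Stat4, Stat5a, Stat5b and Stat6) and 3 kinase genes (Jak1, Jak3 and Tyk2). The samples are mRNA libraries of mouse splenic naive CD4 T cells that were turned in culture into what the labels call Treg (regulatory T) cells. There were 3 libraries of genotype Ifnar1-SA and 3 of genotype wild type (WT), with no treatment or age given in the labels. IFNAR1 is 1 of the chains that bind type I interferon, and the SA allele, as known from publications, carries alanine in place of a degron serine, so that the receptor resists degradation. Whether replicate libraries stem from different mice or cultures is not labelled, and the p-values therefore cover the spread among these samples alone, part of which may be technical. Expression is in TPM, the length-corrected portion of a library's transcripts, which allows genes to be compared with each other but keeps no sequencing depth.

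JAK kinases sit on the inner tails of cytokine receptors and are switched on when a cytokine joins the receptor chains. They phosphorylate STAT proteins, which pair, enter the nucleus and bind DNA. In T cells, TYK2 and JAK1 serve the type I interferon receptor and pass the signal to STAT2, while JAK1 and JAK3 serve the receptors that share the common gamma chain and act mostly through STAT5A, STAT5B and STAT6. STAT3 follows interleukin-6, interleukin-10 and interleukin-21, and STAT4 follows interleukin-12. STAT2 joins IRF9 in the interferon-stimulated complex ISGF3, which reads a DNA element called the ISRE, whereas most other STAT pairs read the GAS element.

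The libraries differed in ways that the genotypes do not explain. Ifnar1-SA 1 and WT 2 held 2978 and 3846 TPM of the short RNA Rn4.5s, against 14249 to 20882 TPM in the other 4 libraries. Their median-of-ratios scaling factors were 1.15 (Ifnar1-SA 1) and 1.13 (WT 2), against 0.890 to 1.003 in the others. Both libraries stood above all 4 others for 35.6% of the 12141 genes whose mean reached 1 TPM, and for 6 of the 9 STAT and JAK genes (Stat5a, Stat5b, Stat6, Jak1, Jak3 and Tyk2), so the fold changes of the 9 genes are also given without this pair. T cell markers were abundant, with Cd3d at 330 to 366 TPM in Ifnar1-SA and 280 to 319 TPM in WT, and Cd3e and Cd3g at 90.2 TPM or more in every library. Foxp3, the factor that defines Treg cells, was at 0.746, 1.82 and 0.759 TPM in Ifnar1-SA and 0.697, 0.295 and 0.276 TPM in WT, low in both but without overlap. Il2ra was at 359 TPM or more throughout. Ctla4, another Treg marker, did not overlap either, at 778, 876 and 762 TPM in Ifnar1-SA and 698, 544 and 482 TPM in WT. Its log2 fold change was 0.50 (limma, unadjusted p = 0.0261, adjusted p = 0.9997). The Treg list as a whole was mixed: of 10 markers 9 passed the filter, 5 higher and 4 lower in Ifnar1-SA by mean log2 value. Their log2 fold changes had a median of 0.13. Itgae, 1 of the 5 higher, had means of 1.16 TPM in Ifnar1-SA and 0.899 TPM in WT. It passed the filter only through its Ifnar1-SA values, so its direction was partly set by the filter. Without the pair, 3 were higher and 5 lower among the 8 that then passed the filter, with a median of −0.05. Summed B cell markers (7 of 8 listed were in the table, among them Cd79a and Cd79b) reached 10.3 to 13.95 TPM in Ifnar1-SA and 9.13 to 20.4 TPM in WT. The 10 myeloid markers, among them Lyz2, Csf1r and Itgam, reached 12.4 to 14.6 TPM in Ifnar1-SA and 10.1 to 16.95 TPM in WT. The 10 CD8 T and NK cell markers overlapped in their sum (1745 to 2614 TPM in Ifnar1-SA and 953 to 2724 TPM in WT), which was mostly Nkg7, while Cd8a, Cd8b1 and Klrk1 were at most 15.4 TPM. Of these markers 5 passed the filter, 3 higher and 2 lower in Ifnar1-SA by mean log2 value, and their log2 fold changes had a median of 0.53. The granzyme gene Gzma did not overlap, at 61.4, 109 and 87.0 TPM in Ifnar1-SA and 31.6, 33.9 and 36.3 TPM in WT (limma, unadjusted p = 0.000777, adjusted p = 0.3527). The perforin gene Prf1 was at 5.18, 7.66 and 12.03 TPM in Ifnar1-SA and 6.65, 2.82 and 4.72 TPM in WT, which overlapped. The part of these cytotoxic markers in the values of the STAT and JAK genes was not tested. The 8 erythroid and platelet markers summed to at most 2.10 TPM in any library, with Hbb-bs listed at 0 throughout and Hba-a1 and Hba-a2 at most 0.641 TPM. The 8 neutrophil and mast cell markers did not overlap in their sum (17.3 to 22.7 TPM in Ifnar1-SA and 7.39 to 10.9 TPM in WT), which was mostly Ly6g. S100a8 was listed at 0 in all Ifnar1-SA libraries and reached at most 0.504 TPM in WT, and S100a9 was at most 2.87 TPM.

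All 9 genes were expressed in every library and all 9 passed the filter of a mean of 1 TPM or more. Stat3 was the most abundant, with a mean of 145 TPM over the 6 libraries and a range of 112 to 219 TPM, above 93.1% of the genes tested. It was followed by Stat5a (mean 95.9 TPM), Jak3 (70.2 TPM), Stat5b (61.2 TPM), Stat6 (42.6 TPM), Jak1 (31.6 TPM), Stat2 (17.8 TPM), Stat4 (11.1 TPM) and Tyk2 (9.27 TPM). Neighbours in this order had overlapping ranges, except that the lowest Jak1 value (25.9 TPM) lay above the highest Stat2 value (25.7 TPM). Within a library the order was steadier: Stat3 exceeded Stat5a, Stat5a exceeded Jak3, Stat5b exceeded Stat6, Stat6 exceeded Jak1 and Jak1 exceeded Stat2 in 6 of 6 libraries. Jak3 exceeded Stat5b and Stat2 exceeded Stat4 in 5 of 6, and Stat4 exceeded Tyk2 in 4 of 6. The most even genes across libraries were Jak1 and Tyk2, each with a highest value 1.58 times its lowest (1.584 for Jak1 and 1.585 for Tyk2), and the least even were Stat2 (2.68 times) and Stat4 (2.34 times).

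**Figure D1:**
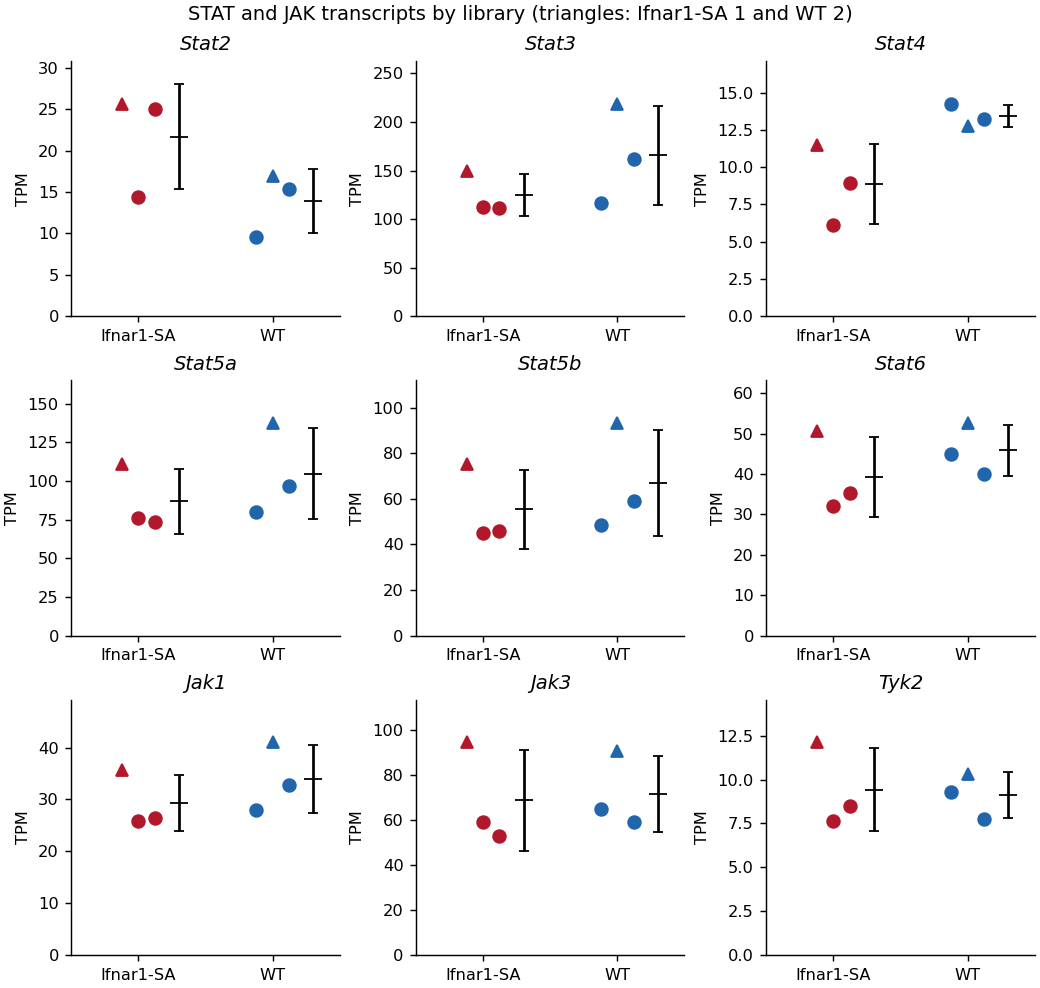
TPM of each of the 9 genes in the 3 Ifnar1-SA (red) and 3 WT (blue) libraries, with the mean and SD as black bars and triangles for Ifnar1-SA 1 and WT 2. Stat4 is the gene whose genotypes do not overlap, at 6.09 to 11.4 TPM in Ifnar1-SA and 12.8 to 14.3 TPM in WT.

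The comparison of Ifnar1-SA with WT asked whether a receptor that resists degradation goes with other levels of the STAT and JAK transcripts. By mean log2 value 2 of the 9 genes were higher in Ifnar1-SA (Stat2 and Tyk2) and 7 were lower, with a median log2 fold change of −0.24 over the 9 genes beside −0.06 over all genes tested, of which 62.9% were lower. Scaling by median of ratios, TMM (trimmed M-value means) or quantiles moved the median of all genes to 0.00 and that of the 9 genes to between −0.20 and −0.18, with 7 lower and 2 higher each time. With limma on log2(TPM + 1) and Benjamini-Hochberg adjustment over all 12141 genes, 0 of the 9 passed an adjusted p of 0.05, and each had an adjusted p of 0.9997. Of all genes tested, 0.0577% passed, which were 7 entries with microRNA symbols, all at 0 TPM throughout 1 genotype. At an unadjusted p under 0.05 lay 1 of the 9 (Stat4), beside 3.12% of all genes in either direction and 1.68% as lower. The genotypes did not overlap for 1 of the 9 (Stat4), beside 5.77% of all genes. These p-values do not show equal levels: the 95% intervals of the 9 log2 fold changes reached from −1.11 at the lowest (Stat4) to 1.29 at the highest (Stat2).

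**Figure D2:**
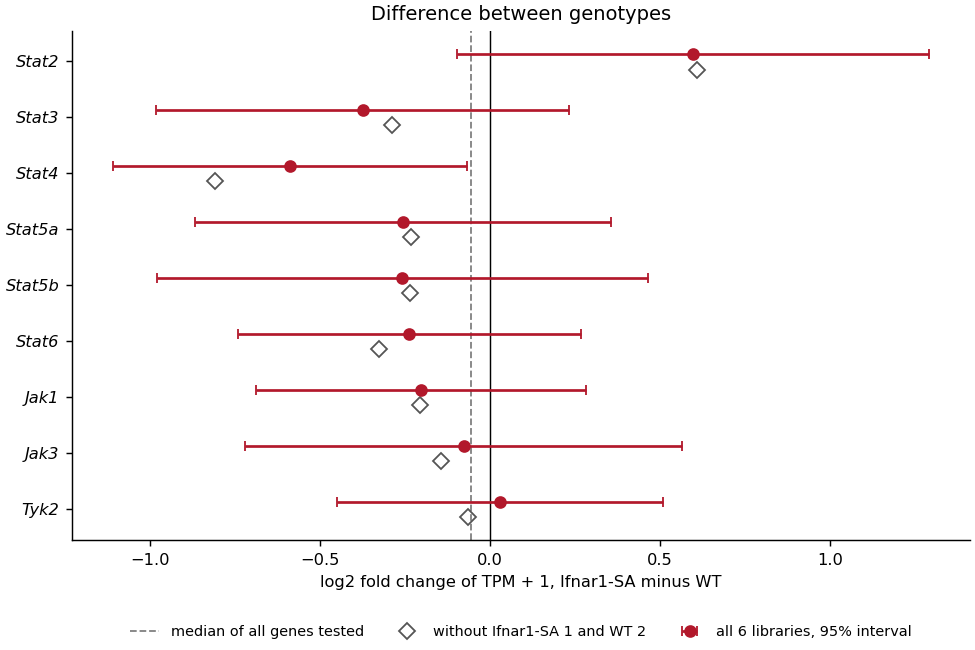
Log2 fold change of TPM + 1, Ifnar1-SA minus WT, for the 9 genes, with 95% limma intervals (red) and the values without Ifnar1-SA 1 and WT 2 (diamonds); the dashed line is the median of all genes tested at −0.06. The interval of Stat4 lies below 0, from −1.11 to −0.07, and the 8 others include 0.

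Stat2, the partner of IRF9 in ISGF3 and a known interferon-inducible gene (GRCm38 chromosome 10, 128270559 to 128292849, plus strand, protein-coding), had the largest higher value in Ifnar1-SA. Its TPM was 25.7, 14.4 and 25.0 in Ifnar1-SA, against 9.56, 16.9 and 15.3 in WT. Ifnar1-SA 1 and 3 lay above all WT libraries, while Ifnar1-SA 2 lay among them, so the genotypes overlapped. The means were 21.7 ± 6.33 TPM in Ifnar1-SA and 13.9 ± 3.86 TPM in WT (SD, n = 3 each), a ratio of 1.56. The log2 fold change was 0.60 with a standard error of 0.29 and a 95% interval of −0.10 to 1.29 (limma, unadjusted p = 0.0811, adjusted p = 0.9997). Without Ifnar1-SA 1 and WT 2 it was 0.61.

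The 250 bases before the RefSeq start of Stat2 are shown because they hold an ISRE-type motif, the element that ISGF3 reads. The motif searched was TTTCNNTTTC on both strands, where N is any base, and its match is in capitals, with its first base 222 bases before the start. Of the 12 start windows that RefSeq lists for the 9 genes, all of which were matched by symbol, 2 held the motif, beside 2.98% of all 32851 windows. The other one belongs to a second start of Stat4. The GAS-type motif TTCNNNGAA on both strands was in 0 of the 12 windows and in 7.02% of all. Shorter stretches of Stat4, of the interferon target Isg15 and of the inhibitor Socs1 are shown beside it for comparison, with overlapping motifs in capitals. All are from RefSeq on GRCm38.p6, on the strand of the gene: Stat2 at chr10:128270248-128270497 (plus), Stat4 at chr1:52008128-52008167 (plus), Isg15 at chr4:156200860-156200911 (minus) and Socs1 at chr16:10785589-10785634 (minus).
Stat2: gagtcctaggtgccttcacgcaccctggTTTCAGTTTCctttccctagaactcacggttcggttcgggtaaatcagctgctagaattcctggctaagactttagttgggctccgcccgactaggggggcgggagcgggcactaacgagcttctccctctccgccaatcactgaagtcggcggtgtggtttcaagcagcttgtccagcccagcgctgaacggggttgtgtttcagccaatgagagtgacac
Stat4: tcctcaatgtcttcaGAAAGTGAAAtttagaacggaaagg
Isg15: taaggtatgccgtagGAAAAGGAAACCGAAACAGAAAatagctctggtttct
Socs1: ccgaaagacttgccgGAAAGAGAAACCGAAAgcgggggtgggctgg

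Of these motif carriers, Isg15 was at 36.9, 25.7 and 103 TPM in Ifnar1-SA and 9.82, 9.82 and 11.7 TPM in WT, without overlap. Socs1 was at 312, 329 and 382 TPM in Ifnar1-SA and 320, 301 and 355 TPM in WT, which overlapped. The windows of Irf7, Irf9 and the STAT5 target Cish, searched in the same way, held 0 matches, and the values of these genes are given below. A match to these letters is a description of the window and shows no binding, and no match says only that the letters are not in it.

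Irf9, which encodes the DNA-binding partner of STAT2, followed a similar order of libraries. It was at 42.7, 27.2 and 36.4 TPM in Ifnar1-SA and 18.0, 31.6 and 25.0 TPM in WT, with Ifnar1-SA 2 again inside the WT range (log2 fold change 0.50, standard error 0.26, limma adjusted p = 0.9997). Among the 3 genes whose centred log2 values lay closest to those of Stat2 over the 6 libraries, out of 7588 compared, were the guanylate-binding protein genes Gbp6 and Gbp9. Their root mean square differences from Stat2 were 0.07 and 0.09 log2 units, where Stat2 itself deviated from its own mean by 0.46. Gbp6 was at 21.4, 12.3 and 21.6 TPM in Ifnar1-SA and 8.13, 12.9 and 11.7 TPM in WT. Gbp9 was at 8.80, 4.47 and 8.07 TPM in Ifnar1-SA and 2.70, 5.67 and 5.88 TPM in WT. For Stat2, Irf9, Gbp6 and Gbp9 alike, WT 1 was the lowest library and Ifnar1-SA 2 the lowest of its genotype. Gbp6 and Gbp9 were chosen for likeness to Stat2 over these same libraries, so their shared low libraries follow from the choice.

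**Figure D3:**
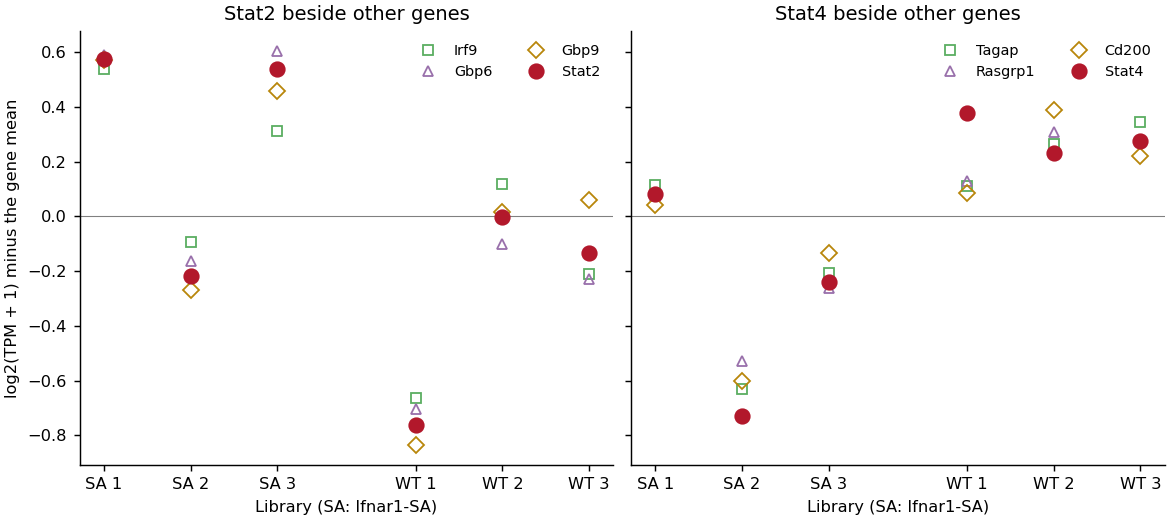
Log2(TPM + 1) minus the mean of each gene in the 3 Ifnar1-SA (SA) and 3 WT libraries, for Stat2 beside Irf9, Gbp6 and Gbp9 (left) and for Stat4 beside its 3 closest genes Tagap, Rasgrp1 and Cd200 (right). Stat2 and its companions are lowest in WT 1, and Stat4 and its companions are lowest in Ifnar1-SA 2. Apart from Irf9, the companions were chosen for likeness over these same libraries.

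Stat4, the transducer of interleukin-12 that drives interferon-gamma production in type 1 helper cells (chromosome 1, 51987148 to 52107189, plus strand), had the smallest p of the 9. Its TPM was 11.4, 6.09 and 8.96 in Ifnar1-SA, against 14.3, 12.8 and 13.2 in WT. All Ifnar1-SA libraries lay below all WT libraries, which 3.80% of the genes tested also showed in this direction. The means were 8.83 ± 2.68 TPM in Ifnar1-SA and 13.4 ± 0.755 TPM in WT (SD, n = 3 each), a ratio of 0.658. The log2 fold change was −0.59 with a standard error of 0.22 and a 95% interval of −1.11 to −0.07 (limma, unadjusted p = 0.0316, adjusted p = 0.9997). Without Ifnar1-SA 1 and WT 2 it was −0.81, with an unadjusted p of 0.0164 and an adjusted p of 0.9959 (limma). With 1 library left out, the log2 fold change of Stat4 ranged from −0.78 to −0.37. When WT 2, WT 3 or Ifnar1-SA 3 was the library left out, the unadjusted p of Stat4 was not under 0.05 (limma). In bulk RNA, fewer cells that express a gene and less RNA per cell cannot be told apart, for Stat4 as for the others.

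The 3 genes closest to Stat4 in profile were Tagap, a GTPase-activating protein gene of activated T cells, Rasgrp1, which links the T cell receptor to Ras, and Cd200, a surface glycoprotein gene. Their root mean square differences from Stat4 were 0.12, 0.13 and 0.15 log2 units, where Stat4 deviated from its own mean by 0.38. Tagap was at 13.8, 7.83 and 10.8 TPM in Ifnar1-SA and 13.8, 15.4 and 16.4 TPM in WT. Rasgrp1 was at 7.81, 4.80 and 5.97 TPM in Ifnar1-SA and 8.15, 9.36 and 9.14 TPM in WT. Ifnar1-SA 2 was the lowest library for each of these 4 genes. Tagap, Rasgrp1 and Cd200 were chosen for likeness to Stat4 over these same libraries, so this follows from the choice.

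Stat3, Stat5a and Stat5b lie side by side on chromosome 11 within 158810 bases. Stat5b (100780731 to 100850724, minus strand) and Stat5a (100859351 to 100885169, plus strand) point away from each other, with 8627 bases between their starts, and the far ends of Stat5a and Stat3 (100885098 to 100939540, minus strand) overlap by 72 bases on opposite strands. The labels do not say whether strand was used in quantification, so reads from that overlap cannot be assigned to either gene with certainty. WT 2 was the highest library for each of the 3 genes.

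Stat3, the transducer of interleukin-6 family cytokines, was at 149, 113 and 112 TPM in Ifnar1-SA, against 117, 219 and 161 TPM in WT. The genotypes overlapped through WT 1, which was close to the lower Ifnar1-SA libraries. The means were 125 ± 21.3 TPM in Ifnar1-SA and 166 ± 51.2 TPM in WT (SD, n = 3 each), with a log2 fold change of −0.37 and a standard error of 0.26 (95% interval −0.98 to 0.23, limma adjusted p = 0.9997). Without Ifnar1-SA 1 and WT 2 it was −0.29.

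Stat5a was at 111, 76.0 and 73.6 TPM in Ifnar1-SA, against 79.9, 138 and 97.1 TPM in WT. Stat5b, its near-copy, was at 75.3, 44.8 and 45.9 TPM in Ifnar1-SA, against 48.7, 93.3 and 58.9 TPM in WT. Both genes transmit interleukin-2 signals, on which Treg cells depend, and in both the genotypes overlapped. Their log2 fold changes were nearly the same, −0.26 for Stat5a with a 95% interval of −0.87 to 0.36 and −0.26 for Stat5b with an interval of −0.98 to 0.46. Without the pair they were −0.23 for Stat5a and −0.24 for Stat5b. The ratio of Stat5a to Stat5b TPM was 1.48, 1.70 and 1.60 in Ifnar1-SA and 1.64, 1.47 and 1.65 in WT, lowest in WT 2 and Ifnar1-SA 1.

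Stat5a and Stat5b are so alike that the split of reads between them is uncertain. Of the distinct 31-base words in their GENCODE M21 transcripts, 836 were shared, which is 11.5% of those of Stat5a and 15.1% of those of Stat5b. Of the 36 pairs among the 9 genes, 3 shared any such word: the others were Stat3 with Stat5a, with 42 words, and Stat2 with Stat3, with 9. A word and its reverse complement were counted as the same. The 72-base overlap of the ends of Stat5a and Stat3 therefore gives shared words without likeness between these genes. Coding exon 7 is identical in Stat5a and Stat5b over 152 bases and is shown once, from Stat5a (GRCm38, chr11:100874339-100874490, plus strand; its copy in Stat5b is at chr11:100798234-100798385, minus strand). Coding exon 4 of each gene follows, with the 5 bases that differ among its 90 in capitals (Stat5a at chr11:100863131-100863220, plus strand; Stat5b at chr11:100802439-100802528, minus strand). The identical exon shows where a short read cannot tell the genes apart, and exon 4 a stretch with few differences. Only coding exons of equal length within a set range were compared, and pairs under a set identity were left out. This left 11 exons of 88 to 157 bases, of which 5 were over 95% identical. Others differ more: exons 3, 12 and 11 were 89.8%, 81.7% and 80.5% identical. Exon 14 shared 76 of its 95 bases, the lowest share among these 11.
Exon 7 of Stat5a and Stat5b: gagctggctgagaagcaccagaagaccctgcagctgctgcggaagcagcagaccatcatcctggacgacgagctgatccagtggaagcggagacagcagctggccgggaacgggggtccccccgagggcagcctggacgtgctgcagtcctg
Stat5a exon 4: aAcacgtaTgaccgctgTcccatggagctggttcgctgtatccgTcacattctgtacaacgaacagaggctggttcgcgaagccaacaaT
Stat5b exon 4: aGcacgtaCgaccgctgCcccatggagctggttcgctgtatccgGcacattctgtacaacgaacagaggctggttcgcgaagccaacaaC

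Stat6, the transducer of interleukin-4 (chromosome 10, 127642986 to 127660957, plus strand), was at 50.5, 32.1 and 35.3 TPM in Ifnar1-SA, against 45.0, 52.6 and 40.1 TPM in WT. Ifnar1-SA 2 and 3 lay below all WT libraries and Ifnar1-SA 1 did not. The log2 fold change was −0.24 with a 95% interval of −0.74 to 0.27, and −0.33 without Ifnar1-SA 1 and WT 2 (limma adjusted p = 0.9997 and 0.9959).

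Among the kinases, Jak1 (chromosome 4, 101152367 to 101265282, minus strand) serves interferon, gamma chain and interleukin-6 family receptors. It was at 35.6, 25.9 and 26.4 TPM in Ifnar1-SA, against 27.9, 41.0 and 32.9 TPM in WT, with a log2 fold change of −0.20 and a 95% interval of −0.69 to 0.28. Jak3 (chromosome 8, 71676296 to 71690575, plus strand), the kinase of the common gamma chain, was at 94.5, 59.3 and 52.6 TPM in Ifnar1-SA, against 64.9, 90.8 and 58.9 TPM in WT, a log2 fold change of −0.08 with an interval of −0.72 to 0.56. Tyk2 (chromosome 9, 21104068 to 21131243, minus strand), the kinase that binds the IFNAR1 chain itself, was at 12.1, 7.65 and 8.49 TPM in Ifnar1-SA, against 9.27, 10.3 and 7.73 TPM in WT, a log2 fold change of 0.03 with an interval of −0.45 to 0.51. All 3 kinases overlapped between the genotypes, and Ifnar1-SA 1 and WT 2 were the highest libraries for each. Without that pair the log2 fold changes were −0.21 for Jak1, −0.14 for Jak3 and −0.06 for Tyk2, so the direction of Tyk2 turned. The median of all genes tested was −0.08 without the pair, below the value of Tyk2.

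The spread within a genotype came largely from the same libraries for most of these genes. WT 2 exceeded the mean of the other WT libraries 1.73 times for Stat5b, 1.57 times for Stat3 and 1.56 times for Stat5a, where the median gene tested was 1.16 times higher. Ifnar1-SA 1 exceeded the mean of the other Ifnar1-SA libraries 1.69 times for Jak3, 1.66 times for Stat5b and 1.52 times for Stat4, where the median gene was 1.28 times higher. Set against each other, Ifnar1-SA 1 over WT 2 gave 1.52 for Stat2, 0.682 for Stat3, 0.809 for Stat5a, 0.807 for Stat5b and 0.895 for Stat4. The other libraries, Ifnar1-SA 2 and 3 over WT 1 and 3, gave 1.58 for Stat2, 0.807 for Stat3, 0.846 for Stat5a, 0.843 for Stat5b and 0.548 for Stat4. The median gene tested gave 1.01 for Ifnar1-SA 1 over WT 2 and 0.928 for the other libraries. Stat2 was above and these 4 below that median in both sets, as were Stat6 (0.961 and 0.791) and Jak1 (0.868 and 0.860) below it. Jak3 (1.04 and 0.904) and Tyk2 (1.17 and 0.949) were above 1 in the first set and below 1 in the second. Set against the median gene, Tyk2 was above it in both sets, and Jak3 above it in the first and below it in the second. With a model term for the pair the standard errors were smaller (0.11 in place of 0.30 for Stat5b), 0 of the 9 genes passed, and the lowest adjusted p was 0.680, for Stat3 and Stat4 (limma). In that fit 0.0412% of all genes passed, and 1 of the 9 (Stat4) had an unadjusted p under 0.05, beside 7.21% of all genes. What made the pair stand apart was not tested.

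The 6 STAT genes summed to 423, 286 and 301 TPM in Ifnar1-SA and 314, 532 and 386 TPM in WT. Stat5a and Stat5b together made up 39.8% to 44.1% of that sum in Ifnar1-SA and 40.4% to 43.4% in WT. Stat3 took 35.2% to 39.4% in Ifnar1-SA and 37.2% to 41.8% in WT, and Stat6 took 11.2% to 11.9% in Ifnar1-SA and 9.89% to 14.3% in WT. Stat2 took 6.06%, 5.03% and 8.32% in Ifnar1-SA, against 3.04%, 3.18% and 3.97% in WT. All Ifnar1-SA libraries lay above all WT libraries on this relative scale, unlike Stat2 TPM itself. Of all genes tested, 7.08% did so when divided by the same sum, and 1.10% lay wholly below, which 0 of the 5 other STAT genes did. Stat4 took 2.13% to 2.98% of the sum in Ifnar1-SA and 2.40% to 4.54% in WT, which overlapped through WT 2. Among the 3 kinase genes Jak3 made up 60.1% to 66.4% of the sum in Ifnar1-SA and 59.2% to 63.9% in WT.

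**Figure D4:**
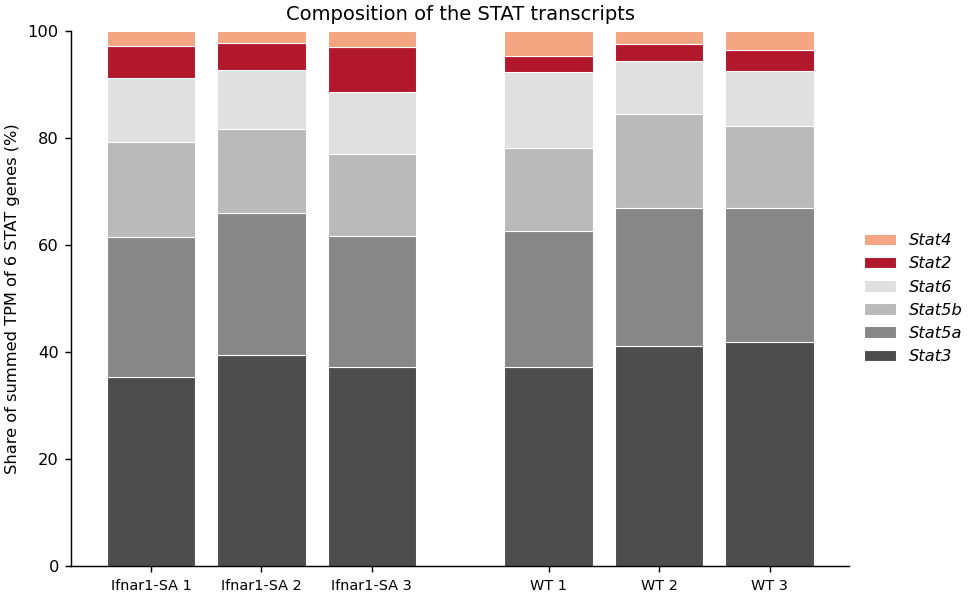
Share of the summed TPM of 6 STAT genes in each library, in percent, with Ifnar1-SA libraries left and WT libraries right. Stat2 (dark red) takes 5.03% to 8.32% in Ifnar1-SA and 3.04% to 3.97% in WT, and Stat3 and the Stat5 genes take most of every bar.

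Around the STAT and JAK genes, 71 pathway genes were listed as receptor chains, inhibitors and cofactors, and 62 of them passed the filter. With limma 0 of 62 passed over all genes, 1 had an unadjusted p under 0.05 (Epor), and 42 were lower and 20 higher by mean log2 value, with a median of −0.09. With median-of-ratios or TMM scaling 36 were lower and 26 higher, with a median of −0.03, and without the pair 39 were lower and 23 higher. The genotypes did not overlap for 4 of the 62, all lower in Ifnar1-SA, which is 6.45% beside 3.80% of all genes. These 4 were Epor, Il13ra1, Socs3 and Sh2b3. Il13ra1 had means of 0.82 TPM in Ifnar1-SA and 1.24 TPM in WT and passed the filter only through its WT values. Its direction was thus partly set by the filter.

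Chains of the common gamma chain receptors, the partners of JAK1 and JAK3, were among the most abundant, and 0 of 7 tested passed. Il2rg, the gamma chain, was at 996 ± 190 TPM in Ifnar1-SA and 918 ± 79.3 TPM in WT. Il2ra was at 437 ± 12.7 and Il2rb at 376 ± 48.5 TPM in Ifnar1-SA, against 390 ± 34.8 TPM (Il2ra) and 427 ± 40.1 TPM (Il2rb) in WT. Of the 5 interferon receptor chains tested 4 were lower by mean log2 value and 0 passed. Ifnar1 was at 25.1 ± 3.09 TPM in Ifnar1-SA and 31.1 ± 9.51 TPM in WT. Ifnar2 was at 64.0 ± 11.3 TPM in Ifnar1-SA and 79.3 ± 20.6 TPM in WT, and Ifngr1, of the interferon-gamma receptor, at 29.1 ± 5.47 TPM in Ifnar1-SA and 25.4 ± 4.39 TPM in WT. The smallest p values of this list were those of Ifngr2 (20.5 ± 2.99 TPM in Ifnar1-SA, 26.1 ± 4.18 TPM in WT) and Il10rb (18.6 ± 2.85 TPM in Ifnar1-SA, 22.1 ± 3.16 TPM in WT).

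Receptor chains of the interleukin-6 and interleukin-12 family, which feed STAT3 and STAT4, also had 0 of 9 past the test. Il12rb1, shared by the receptors of interleukin-12 and interleukin-23, was at 87.8 ± 28.7 TPM in Ifnar1-SA and 79.4 ± 9.89 TPM in WT. Il6ra was at 3.52 ± 1.04 TPM and Il11ra1 at 2.62 ± 0.834 TPM in Ifnar1-SA, against 4.45 ± 0.921 TPM (Il6ra) and 4.20 ± 2.39 TPM (Il11ra1) in WT, and Il6st, the shared signalling chain gp130, was at most 1.72 TPM in any library. Of the 10 other JAK-coupled chains tested, the erythropoietin receptor gene Epor was at 4.63, 5.01 and 3.45 TPM in Ifnar1-SA and 6.05, 11.6 and 9.11 TPM in WT, a log2 fold change of −0.86 with a standard error of 0.24 (limma, unadjusted p = 0.00983, adjusted p = 0.9997). Il3ra was at 4.43 ± 0.770 TPM in Ifnar1-SA and 3.24 ± 0.832 TPM in WT, Il5ra was at 8.11 ± 1.33 TPM in Ifnar1-SA and 9.70 ± 3.10 TPM in WT, and Csf2ra at 3.96 ± 0.540 TPM in Ifnar1-SA and 4.04 ± 0.551 TPM in WT.

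Of 21 inhibitors tested, 16 were lower and 5 higher by mean log2 value and 0 passed. Their median log2 fold change was −0.12. Socs3, a STAT3 target that restrains the interleukin-6 receptor, was at 33.2, 34.2 and 29.8 TPM in Ifnar1-SA and 34.9, 39.5 and 36.9 TPM in WT, without overlap. Sh2b3, an adaptor that restrains cytokine signalling, was at 4.03, 2.89 and 3.43 TPM in Ifnar1-SA and 4.43, 4.16 and 4.32 TPM in WT, without overlap. Socs2 was at 104 ± 14.03 TPM in Ifnar1-SA and 122 ± 11.4 TPM in WT. Usp18, which blocks JAK1 at the interferon receptor, was at 76.6, 30.0 and 97.9 TPM in Ifnar1-SA and 8.16, 43.8 and 28.1 TPM in WT, with Ifnar1-SA 2 inside the WT range as for Stat2. Of the 10 cofactors 0 passed: besides Irf9, the STAT-binding protein gene Nmi was at 36.5 ± 7.12 TPM in Ifnar1-SA and 26.6 ± 5.58 TPM in WT, and the acetyltransferase genes Ep300 and Crebbp were at most 4.84 TPM.

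**Figure D5:**
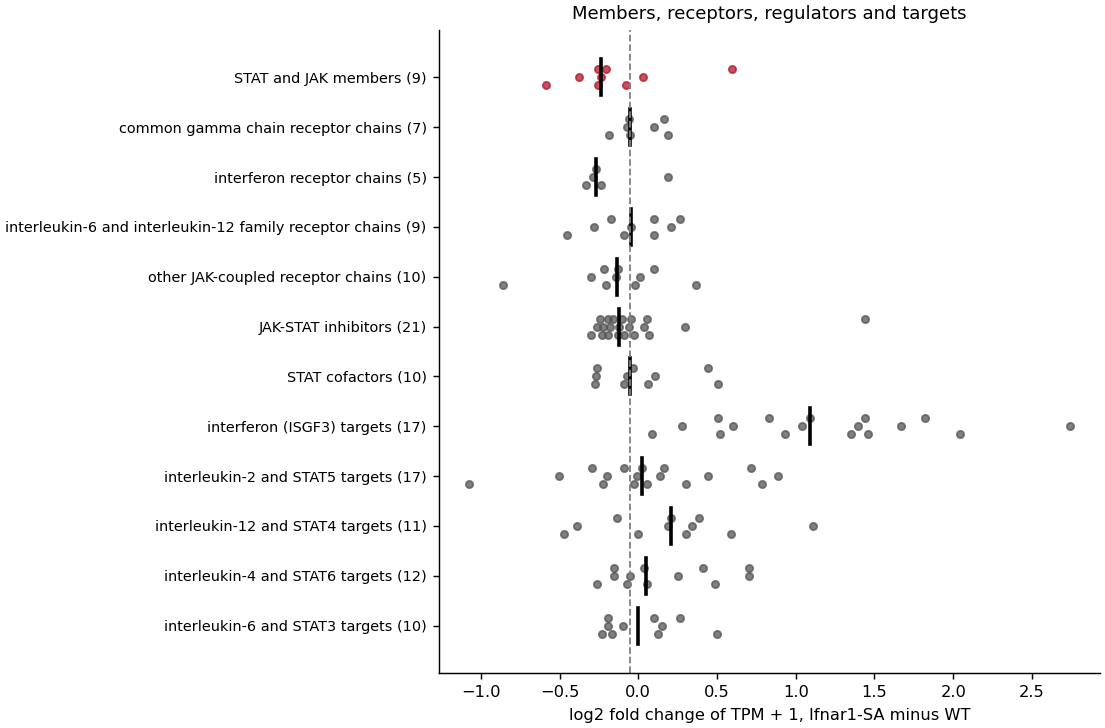
Log2 fold change of TPM + 1, Ifnar1-SA minus WT, for each tested gene of the listed groups (points, number of genes in brackets), with the median of each group (black bar) and of all genes (dashed line at −0.06). The interferon targets lie to the right, with a median of 1.09, and the medians of the other groups lie between −0.27 and 0.21.

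Known targets of each STAT were set beside the STAT itself. Of 22 interferon (ISGF3) targets, 17 passed the filter, all of which were higher in Ifnar1-SA. The filter takes the mean over all 6 libraries. Oas1a, Mx1, Ifi44 and Rsad2 had WT means of 0.88, 0.96, 0.72 and 0.97 TPM and passed only through their Ifnar1-SA values. Their direction was thus partly set by the filter. Their median log2 fold change was 1.09, and 1.39 without the pair. With limma 0 passed over all genes, 12 had an unadjusted p under 0.05 as higher, beside 1.44% of all genes, and 11 did not overlap, beside 1.97%. Oas1a and Ifi44 were among the 12, and Ifi44 was among the 11. Irf7, an interferon-induced transcription factor, was at 28.1, 11.5 and 42.2 TPM in Ifnar1-SA and 2.01, 3.44 and 2.94 TPM in WT. Ifi27l2a was at 780, 714 and 1482 TPM in Ifnar1-SA and 243, 240 and 319 TPM in WT. The summed targets were at 1673, 1370 and 2763 TPM in Ifnar1-SA and 657, 707 and 701 TPM in WT. Most of this sum was Ifi27l2a and Bst2 (483, 393 and 675 TPM of Bst2 in Ifnar1-SA and 268, 257 and 212 TPM in WT). By this sum Ifnar1-SA 2 was the lowest of its genotype, as it was for Stat2, but above all WT libraries. Besides the 11 targets without overlap, Ifnar1-SA 2 lay inside the WT range for Irf9, Usp18, Oas1a, Mx1, Rsad2 and Dtx3l. The other 5 targets were under the filter. By mean TPM, Oas2 and Ifit3 were lower in Ifnar1-SA, and Oasl2, Ifit1 and Rtp4 were higher. That the interferon targets were higher in these libraries was already known when the list was written.

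Targets of the other STATs were mixed. Of 17 interleukin-2 and STAT5 targets 9 were higher and 8 lower by mean log2 value (11 and 6 with median-of-ratios scaling), and 0 passed, with a median of 0.02. Cish, the classical STAT5 target, was at 209, 147 and 167 TPM in Ifnar1-SA and 189, 182 and 180 TPM in WT. The smallest p values were those of the cytokine genes Lta (109, 63.0 and 101 TPM in Ifnar1-SA and 164, 166 and 244 TPM in WT) and Lif (67.1, 50.9 and 52.6 TPM in Ifnar1-SA and 32.8, 40.1 and 25.6 TPM in WT), lower and higher in Ifnar1-SA and without overlap in either case (limma adjusted p = 0.9445 and 0.9997).

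Of 11 tested interleukin-12 and STAT4 targets 8 were higher and 3 lower, with a median of 0.21 and of 0.05 without the pair, and 0 passed. Ifng was at 8.54, 22.9 and 28.6 TPM in Ifnar1-SA and 28.7, 6.79 and 7.54 TPM in WT. The interleukin-18 receptor gene Il18r1 was at 1.12 ± 0.0883 TPM in Ifnar1-SA and 1.96 ± 0.520 TPM in WT, Il18rap was at most 0.445 TPM, and the chemokine gene Ccl5 was at 60.6, 78.3 and 143 TPM in Ifnar1-SA and 35.7, 30.1 and 60.8 TPM in WT. Gadd45g had the same p as Il18r1 and was likewise lower without overlap, at 91.2, 84.4 and 72.7 TPM in Ifnar1-SA and 110, 119 and 97.1 TPM in WT.

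Of the 12 interleukin-4 and STAT6 targets 7 were higher and 5 lower and 0 passed. Gata3, the type 2 helper factor, was at 148 ± 12.9 TPM in Ifnar1-SA and 143 ± 4.72 TPM in WT. Il4ra was at 103 ± 17.6 TPM in Ifnar1-SA and 107 ± 15.9 TPM in WT, and Il4 at 440 ± 183 TPM in Ifnar1-SA and 302 ± 67.0 TPM in WT. The smallest p values were those of Epas1 (11.6 ± 1.92 TPM in Ifnar1-SA, 7.18 ± 3.19 TPM in WT) and Il5 (548 ± 40.3 TPM in Ifnar1-SA, 422 ± 124 TPM in WT). Of 10 tested interleukin-6 and STAT3 targets 5 were higher and 5 lower and 0 passed. The hypoxia factor gene Hif1a was at 106, 99.0 and 102 TPM in Ifnar1-SA and 110, 137 and 116 TPM in WT, without overlap. Bcl3 was at 84.2 ± 15.8 TPM in Ifnar1-SA and 95.6 ± 24.0 TPM in WT.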

How the data were processed

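A single table with TPM per gene symbol and a column per sample was deposited. Per the submitters' processing notes, Salmon, mm10 and GRCm38 were used, while version, annotation and strand setting are not given in the sources. Each column sums to 1e+06, so depth is unknown and no counting interval is given. Values were tested as log2(TPM + 1), which understates changes of low genes, for 12141 genes (mean of 1 TPM or more), with limma 3.58.1 and an intensity trend (R 4.3.3), two-sided, adjusted over all genes at 0.05. Fold changes are Ifnar1-SA minus WT. The fit was also run on simulated data, in which each gene was drawn independently, without the shared shift of Ifnar1-SA 1 and WT 2. That run therefore cannot tell how the p-values behave under such a shift. The members, lists and alternatives were chosen with earlier results of these data known. The text names the members, the leading genes of each list, the 2 of smallest p per list and, for Stat2 and Stat4, the genes nearest in profile (mean of 5 TPM or more), of which 1 is not reported here. Gadd45g, Il13ra1, Ly6g, Nkg7, Gzma, Prf1, Ctla4, Cd200, Ifit1 and Ifit3 were named after their values were seen where no rule took them. The same holds for Oas1a, Oas2, Oasl2, Mx1, Ifi44, Rsad2, Rtp4, Bst2, Dtx3l and Itgae. Positions and transcripts are from GENCODE M21, matched by symbol. Alternatives are those of the closing part. Python 3.11.15, pandas 2.3.3 and matplotlib 3.10.9 were used.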

Additional observations from a re-analysis of the deposited data

How the results depend on the processing

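Under 18 alternatives 0 of the 9 STAT and JAK genes and 0 of the pathway genes passed the test. The lowest adjusted p of any of the 9 was 0.370, for Stat4. Stat2 stayed higher (log2 fold change 0.36 to 0.86) and Stat4 (−0.81 to −0.37), Stat3 (−0.60 to −0.15), Stat5a (−0.44 to −0.04), Stat6 (−0.43 to −0.11) and Jak1 (−0.35 to −0.06) stayed lower in all 18. The sign turned for Stat5b (0.0046 when WT 2 was left out), for Jak3 (0.11 when WT 2 was left out, 0.0052 for Ifnar1-SA 2 and 0.0894 for Ifnar1-SA 3) and for Tyk2 (−0.0188 with array weights, −0.0733 when WT 3 was left out, −0.15 for Ifnar1-SA 1, and −0.0638 without the pair of Ifnar1-SA 1 and WT 2). When 1 library was left out, Stat5b ranged from −0.50 to 0.0046, Jak3 from −0.33 to 0.11 and Tyk2 from −0.15 to 0.15. Causes were not tested.

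The 7 genes past the threshold in the whole table became 15 and 14 with pseudocounts of 0.1 and 0.5, 1 with a mean of at least 5 TPM, 12 with array weights, and 0 without that pair (limma, 366 at an unadjusted p under 0.05). With 1 library left out there were 15 to 28. With the replicate number as a block there were 0 (limma, 399 at an unadjusted p under 0.05). Same-numbered libraries share only a number: correlations of their deviations were −0.11, −0.11 and 0.15 for numbers 1, 2 and 3, and 1 of the 3 Ifnar1-SA libraries correlated best with its own number. The block left the log2 fold changes as they were, with Stat4 at −0.59 (standard error 0.18, adjusted p = 0.9995). Depth is unknown for TPM, and 3 libraries per genotype left 95% intervals of the 9 genes about 1 log2 unit wide or more.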
